A study of Homo sapiens with 9 samples.

Results

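Cells treated with the EZH2 inhibitor GSK126 were set directly against cells in which wild-type ARID1A had been restored, on 6 of the 9 arrays of the series. The 3 GSK126 arrays came from OVISE cells given 5 µM GSK126 and no doxycycline. The 3 ARID1A arrays came from OVISE cells given 1 µg/mL doxycycline, which switches on a wild-type ARID1A construct, and no GSK126. The 3 DMSO arrays, from cells given the vehicle alone, did not enter the comparison, although they added to the estimate of the spread and their levels are printed beside the others. OVISE is a standard cell line from an ovarian clear cell carcinoma with mutated ARID1A, and it was cultured here as a 3D culture inside Matrigel, a gel of basement membrane proteins. Replicates 1, 2 and 3 of each group came from the labelled batches 1, 2 and 3. Doxycycline was given to the ARID1A cells only, so its own effect and that of ARID1A cannot be told apart. The sources used here do not give the length of treatment or say that replicates were separate cultures. Nor do they say whether the GSK126 and DMSO cells carried the ARID1A construct. The spread behind each p-value is that among these 9 samples and may be technical.

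ARID1A binds DNA within the SWI/SNF remodelling complex, which uses ATP to slide and evict nucleosomes and so opens chromatin. EZH2 is the catalytic subunit of the Polycomb repressive complex PRC2, which methylates H3K27 and keeps genes silent. The complexes are known to oppose each other at many genes, and clear cell ovarian carcinomas often lose ARID1A, which makes it of interest where removing the repressor and restoring the remodeller leave the transcriptome in different states.

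Of 47323 probes on the array, between 21317 and 22517 per array were detected, meaning brighter than the negative controls with a detection p below 0.05, and 23014 were detected on at least 3 of the 9 arrays and kept. They stood for 12698 genes, each through its brightest kept probe. Levels are normalised log2 intensities, and a difference is GSK126 minus ARID1A on that log2 scale, 3 arrays against 3. Its standard error (SE) comes from limma's linear model, with the spread taken over all 9 arrays and moderated across genes. A gene was called when its adjusted p in limma's linear model, with Benjamini-Hochberg adjustment over all genes, was below 0.05. In bulk RNA, fewer cells of a type and less RNA per cell cannot be told apart. Of 7 epithelial and clear cell markers analysed, 6 were detected on all arrays and KRT18 on none, with summed linear signals of 162600 to 165400 in GSK126, 192900 to 208100 in ARID1A and 170400 to 175900 in DMSO cells. Of 9 fibroblast markers 6 were undetected on all arrays, COL1A2 and PDGFRB among them. FBLN1 was detected on all arrays (means 12.23 in GSK126, 12.38 in ARID1A and 12.38 in DMSO cells), and COL1A1 and DCN on some. The 9 summed to 5192 to 5667 in GSK126, 5278 to 6336 in ARID1A and 5495 to 6368 in DMSO cells. The leukocyte markers PTPRC, CD3E and NKG7 were undetected on all arrays. CD14, LYZ, ITGAM and CD68 were detected on all GSK126 and ARID1A arrays, CD68 with means of 11.42 in GSK126 and 11.5 in ARID1A cells. MS4A1 was detected on 2 GSK126 arrays alone. The 8 analysed summed to 3423 to 3751 in GSK126, 3555 to 3931 in ARID1A and 3659 to 3958 in DMSO cells. Of 6 endothelial markers 5 were undetected on all arrays. The sixth, VWF, was detected on the 3 ARID1A arrays alone (7.28, 7.23 and 7.33), where it was at least 1.44-fold higher than in GSK126 cells (limma adjusted p = 0.000231), and the endothelial sum was 392.9 to 396.2 in GSK126, 481 to 512.1 in ARID1A and 386.9 to 425.7 in DMSO cells. The part of other cell types in the results was not tested.

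The targeted gene separated the groups on 1 of its 2 kept probes. On probe ILMN_1734496, ARID1A was detected on no GSK126 array (mean 5.56), on 3 of 3 ARID1A arrays (mean 8.67) and on no DMSO array (mean 5.69). With every kept probe in the adjustment its limma adjusted p was 0.000299, for a level at least 3.77-fold higher in ARID1A than in GSK126 cells. A fold written "at least" compares the bright group's mean with that of the dim group after lifting every array of the dim group at least to the faintest signal detected on it. It is a bound on means that ignores their spread, and the p beside it belongs to the fitted difference. The brighter probe, ILMN_1797341, read 10.88, 10.83 and 10.88 in GSK126 cells and 11.03, 10.97 and 10.82 in ARID1A cells, a difference of −0.08 (SE 0.08, limma adjusted p = 0.72). EZH2 transcript read 9.95, 10.32 and 10.01 in GSK126 cells and 10.12, 10.44 and 10.04 in ARID1A cells, and the groups overlapped. Its difference was −0.11, with a 95% confidence interval from −0.44 to 0.22 (limma adjusted p = 0.785). The paralogue EZH1 differed by 0.32 (95% interval −0.24 to 0.88, limma adjusted p = 0.588).

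In all, 317 genes were called between the treatments, 2.5% of those tested. Of these, 121 were higher with GSK126 (0.953%) and 196 lower (1.54%), which made the higher genes 38.2% of the calls (49.7% when the arrays were centred on their medians in place of quantile normalisation, with 156 higher and 158 lower). An unadjusted p below 0.05 was reached by 2090 genes. The falls were larger: 80 of the lower genes and 20 of the higher ones differed at least 2-fold, and the median difference was −0.86 among the lower and 0.69 among the higher genes, against −0.007 over all 12698. All 317 had 1 sign in the 3 batches and groups that did not overlap, as did the groups of 1228 higher and 1442 lower genes among all tested. The labels pair the samples by batch, and with batch as a block in the model 530 genes were called (4.17%), 230 higher and 300 lower, of which 298 were among the 317. With only the 6 arrays in the fit the count was 168 without the block and 120 with it. Leaving out 1 of the 6 arrays gave between 108 genes (without ARID1A replicate 3) and 170 (without ARID1A replicate 2), and leaving out batch 1, 2 or 3 gave 29, 68 and 36.

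**Figure D1:**
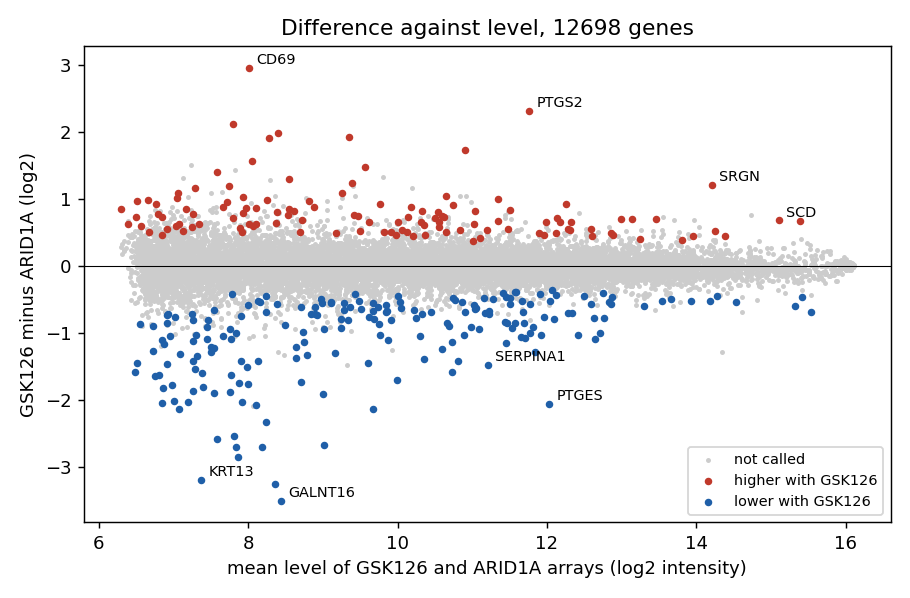
Difference between GSK126 and ARID1A cells (y axis, log2) against the mean level of the 6 arrays (x axis, log2 intensity) for 12698 genes, each point 1 gene. Red points are the 121 genes called higher and blue points the 196 called lower with GSK126; the largest falls lie further from 0 than the largest rises, with GALNT16 at −3.51 and CD69 at 2.96.

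The largest falls included enzymes, filament proteins and surface proteins of epithelium. GALNT16, which adds the first sugar of mucin-type O-glycans, read 6.63, 6.74 and 6.67 in GSK126 cells, against 10.30, 9.81 and 10.45 in ARID1A cells and 6.36, 6.70 and 6.21 in DMSO cells. It was detected on 1 of 3 GSK126 arrays and was at least 10.8-fold higher in ARID1A cells (difference −3.51, SE 0.17, limma adjusted p = 3.72e-05). The atrial myosin light chain MYL4 read 6.69, 7.09 and 6.41 in GSK126 cells, against 9.80, 9.85 and 10.30 in ARID1A cells, at least 8.67-fold higher there (limma adjusted p = 0.000256). The GSK126 and DMSO arrays of both genes lay together and the ARID1A arrays stood apart. KRT13, a keratin of stratified and transitional epithelia, was undetected on all GSK126 arrays (5.68, 5.85 and 5.79) and read 8.36, 9.36 and 9.18 in ARID1A cells, at least 4.64-fold higher (limma adjusted p = 0.000481). DENND2A, one of the DENN-domain proteins that activate Rab GTPases, was likewise undetected in GSK126 cells (6.17, 6.44 and 6.25) and read 8.59, 8.71 and 9.32 in ARID1A cells, at least 4.35-fold higher (limma adjusted p = 0.000256). Neither gene was detected on a DMSO array.

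Other large falls were in surface and metabolic proteins. The diamine oxidase AOC1, which breaks down histamine, read 7.62, 7.37 and 8.03 in GSK126 cells, against 9.99, 10.02 and 11.04 in ARID1A cells and 7.08, 7.70 and 8.33 in DMSO cells (difference −2.68, SE 0.36, limma adjusted p = 0.0072). The GABA-B receptor subunit GABBR2 read 6.63, 7.51 and 7.09 in GSK126 cells, against 9.35, 9.40 and 9.47 in ARID1A cells, at least 4.87-fold higher (limma adjusted p = 0.000965). The ephrin ligand EFNB1, detected on all arrays, read 8.75, 8.73 and 8.30 in GSK126 cells, against 10.66, 10.37 and 11.18 in ARID1A cells (difference −2.14, SE 0.20, limma adjusted p = 0.000965). In none of these did the GSK126 and ARID1A arrays overlap. CAPN6, a calpain that lacks protease activity and binds microtubules, was at least 4.18-fold higher in ARID1A cells (limma adjusted p = 0.000885). Myoglobin, MB, and the small heat shock protein HSPB8 were undetected on all GSK126 and DMSO arrays. In ARID1A cells MB was higher by at least 2.62-fold and HSPB8 by at least 2.18-fold (limma adjusted p = 0.0137 and 0.00323). MB read 9.11 on ARID1A replicate 3, against 7.71 and 7.61 on the other ARID1A arrays.

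The largest rises included inflammatory genes. CD69, an early activation antigen of lymphocytes, read 10.21, 8.97 and 9.30 in GSK126 cells, against 6.32, 6.98 and 6.31 in ARID1A cells and 9.61, 8.94 and 9.18 in DMSO cells. Detected on 1 of 3 ARID1A arrays, it was at least 6.17-fold higher with GSK126 (difference 2.96, SE 0.32, limma adjusted p = 0.00275), and its other probe differed by 1.42 (limma adjusted p = 0.0175 over all probes). The call was lost only when batch 3 was left out, among the alternatives run. TCN1, which carries vitamin B12 in secretions, read 12.06, 11.56 and 11.69 in GSK126 cells, against 10.14, 9.77 and 10.21 in ARID1A cells (difference 1.73, SE 0.20, limma adjusted p = 0.00351). The proteoglycan core protein SRGN, which packs secretory granules, averaged 14.81 ± 0.27 in GSK126 cells and 13.61 ± 0.43 in ARID1A cells (SD, n = 3 each) (difference 1.20, SE 0.22, limma adjusted p = 0.0276). In each the lowest GSK126 array lay above the highest ARID1A array.

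Further rises included FEZ1 and 3 genes of cell contacts and vesicles. The axon-growth adaptor FEZ1 read 10.12, 8.89 and 8.68 in GSK126 cells, against 7.03, 7.26 and 7.66 in ARID1A cells (difference 1.91, SE 0.37, limma adjusted p = 0.0303). Its other probes differed by 0.11 and 0.39 and were not called, so the call rests on 1 of its 3 probes. The synaptic adhesion protein SLITRK5 was at least 2.57-fold higher with GSK126 (limma adjusted p = 0.0213), and the vesicle coat adaptor SNAP91, detected on 1 of 3 ARID1A arrays, at least 1.95-fold (limma adjusted p = 0.0137). The junctional adhesion molecule JAM3 read 9.42, 9.32 and 8.82 in GSK126 cells, against 7.70, 8.35 and 7.64 in ARID1A cells (difference 1.29, SE 0.24, limma adjusted p = 0.0276).

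**Figure D2:**
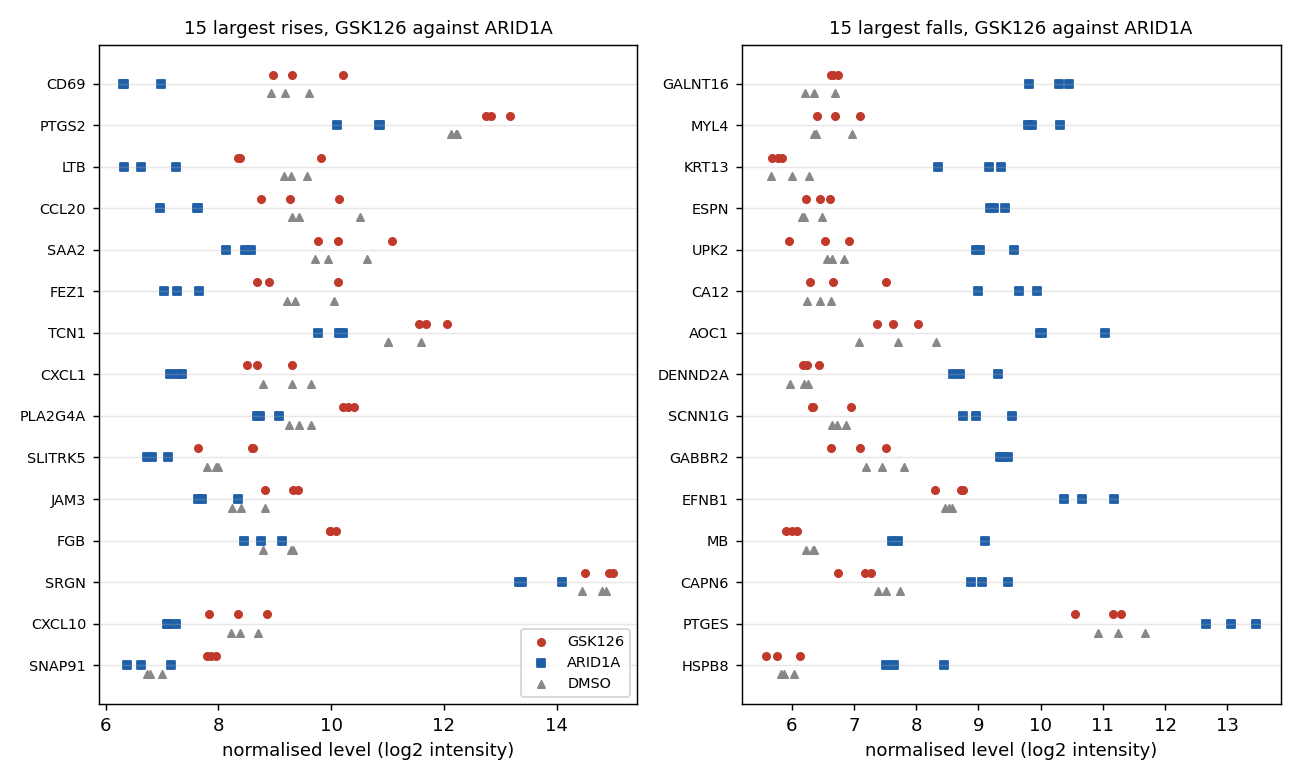
Normalised level (x axis, log2 intensity) of the 15 genes with the largest rise (left) and the 15 with the largest fall (right) between GSK126 and ARID1A cells, 1 symbol per array: red circles GSK126, blue squares ARID1A, grey triangles DMSO. Among the falls the DMSO arrays lie with the GSK126 arrays and the ARID1A arrays stand to the right; GALNT16 lies between 6.63 and 6.74 in GSK126 cells and between 9.81 and 10.45 in ARID1A cells.

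Prostaglandin genes moved in both directions. Prostaglandins are made from arachidonic acid, which phospholipases free from membranes, cyclooxygenases turn into the common precursor, and terminal synthases turn into each end product; prostaglandin E2 then acts through its own receptors until it is taken up and oxidised. Of 19 genes listed, 13 were tested, and 3 were higher and 2 lower with GSK126 (38.5%, against 2.5% over all genes). At the first step the cytosolic phospholipase PLA2G4A read 10.21, 10.31 and 10.40 in GSK126 cells, against 8.68, 9.08 and 8.74 in ARID1A cells and 9.26, 9.42 and 9.65 in DMSO cells. It was 1.47 higher with GSK126 (SE 0.14, limma adjusted p = 0.000965). The secreted phospholipase PLA2G10 ran the other way, at 6.99, 7.08 and 7.34 in GSK126 cells, against 8.01, 8.09 and 8.46 in ARID1A cells (difference −1.05, SE 0.17, limma adjusted p = 0.0166). At the second step the inducible cyclooxygenase PTGS2 read 13.17, 12.83 and 12.75 in GSK126 cells, against 10.85, 10.86 and 10.11 in ARID1A cells and 12.24, 12.22 and 12.13 in DMSO cells. The difference was 2.31 (SE 0.20, limma adjusted p = 0.000795), or 4.96-fold, and its other probe differed by 2.49. For both PLA2G4A and PTGS2 all 3 DMSO arrays lay between the other groups.

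At the terminal step PTGES, the inducible prostaglandin E synthase, read 11.29, 11.16 and 10.55 in GSK126 cells, against 13.06, 12.66 and 13.46 in ARID1A cells and 11.67, 11.25 and 10.93 in DMSO cells. The difference was −2.06 (SE 0.27, limma adjusted p = 0.00613), a 4.18-fold higher level in ARID1A cells. The constitutive synthases PTGES2 (−0.14, 95% interval −0.38 to 0.09) and PTGES3 (0.20, 95% interval −0.01 to 0.42) did not pass. HPGD, which oxidises prostaglandins and so ends their action, read 10.60, 10.27 and 10.63 in GSK126 cells, against 10.02, 9.67 and 9.65 in ARID1A cells (difference 0.72, SE 0.14, limma adjusted p = 0.0301). The uptake carrier SLCO2A1 read 9.22, 8.30 and 8.21 in GSK126 cells and 10.12, 9.47 and 10.58 in ARID1A cells, with a difference of −1.48 that was called with batch as a block (limma adjusted p = 0.0321) and not without it (0.0684). The receptors PTGER2 (−0.12) and PTGER4 (0.12) did not pass. Of the cyclooxygenase and the inducible synthase that follow each other in making prostaglandin E2, PTGS2 was thus higher and PTGES lower with GSK126. PTGES kept its call with any 1 array left out and lost it with any batch left out or with the block on 6 arrays, while PTGS2 and PLA2G4A kept theirs under every alternative run.

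**Figure D3:**
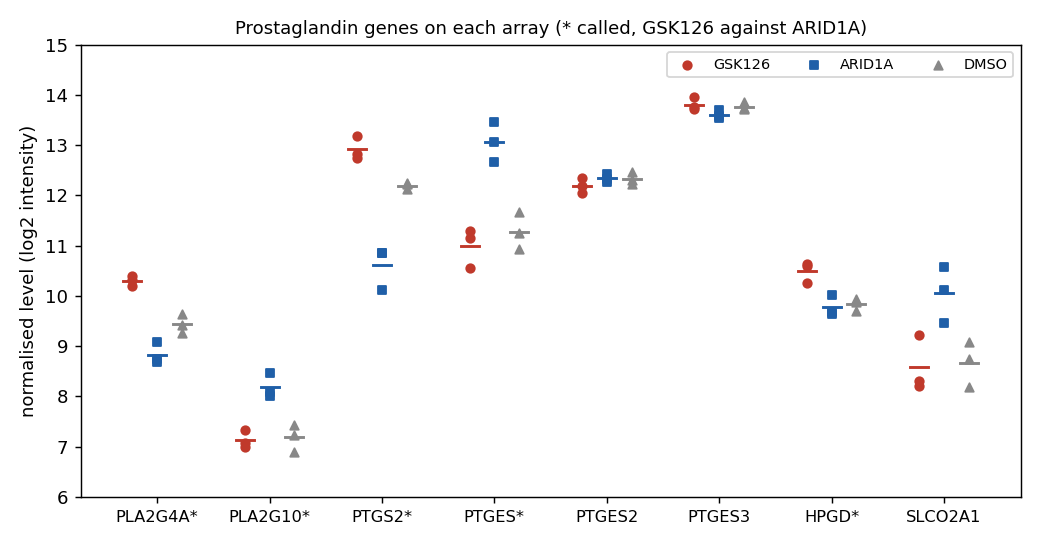
Normalised level (y axis, log2 intensity) of 8 prostaglandin genes on each array, with GSK126 in red, ARID1A in blue and DMSO in grey; bars are group means of 3 arrays and asterisks mark genes called between GSK126 and ARID1A. PTGS2 has its 3 GSK126 arrays above and PTGES its 3 GSK126 arrays below all ARID1A arrays.

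Cytokines and targets of NF-kappaB were higher with GSK126 where they were called, with 1 exception. NF-kappaB is a transcription factor held in the cytoplasm by inhibitors until inflammatory signals release it, and its targets include chemokines, TNF ligands and its own inhibitors. Of 34 genes listed, 23 were tested, 6 were called higher and 1 lower, against 0.953% and 1.54% over all genes. The median difference of the 23 was 0.247, and the batch medians were 0.529, 0.014 and 0.316 in batches 1, 2 and 3, so batch 2 lay near 0. A gene detected in 1 group alone passes the filter through that group, so these counts are over the tested members and not over the list. The chemokine CCL20, which draws lymphocytes and dendritic cells, read 10.13, 9.28 and 8.75 in GSK126 cells, against 6.96, 7.63 and 7.62 in ARID1A cells and 10.51, 9.43 and 9.31 in DMSO cells (difference 1.98, SE 0.40, limma adjusted p = 0.0362). CXCL1, which draws neutrophils, read 9.31, 8.69 and 8.50 in GSK126 cells, against 7.28, 7.35 and 7.15 in ARID1A cells (difference 1.57, SE 0.24, limma adjusted p = 0.0142). CXCL10, a ligand of the chemokine receptor CXCR3, read 8.86, 7.83 and 8.34 in GSK126 cells, against 7.09, 7.25 and 7.10 in ARID1A cells (difference 1.19, SE 0.23, limma adjusted p = 0.0303). In all 3 chemokines GSK126 replicate 1 was the highest array of the 6. The call of CCL20 was lost in 10 of 22 alternatives, among them leaving out any 1 array other than GSK126 replicate 3.

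Among the TNF ligands, LTB, which signals with lymphotoxin alpha through LTBR, read 9.82, 8.38 and 8.35 in GSK126 cells, against 6.32, 7.25 and 6.62 in ARID1A cells and 9.56, 9.29 and 9.16 in DMSO cells. It was at least 3.72-fold higher with GSK126 (limma adjusted p = 0.0262), and its other probe differed by 0.80 without passing (limma adjusted p = 0.199 over all probes). The call of LTB was lost in 8 of 21 alternatives. Among them were leaving out ARID1A replicate 1 or replicate 3 and the fit on 6 arrays (limma adjusted p = 0.0647). TNF itself was detected on 2 of 3 GSK126 arrays (7.06, 6.84 and 6.27), no ARID1A array (5.80, 5.94 and 5.88) and all DMSO arrays (7.66, 7.86 and 7.60). Its difference of 0.85 was called (limma adjusted p = 0.0442), and no fold is given because the GSK126 level lay at the edge of detection. TNFSF10, the death ligand TRAIL, read 11.05, 11.47 and 11.86 in GSK126 cells and 10.54, 10.23 and 10.77 in ARID1A cells. Its difference of 0.95 (SE 0.21) missed the threshold (limma adjusted p = 0.0508) and passed with the block (0.0229). Of the 19 tested genes of the TNF ligand and receptor list, 3 were called higher (CD69, LTB and TNF) and none lower (15.8%, against 2.5% over all genes). CD69 was placed in this list although it is neither a TNF ligand nor a TNF receptor. The called members of the family itself were thus LTB and TNF. Without adjustment 5 higher and 1 lower had a p below 0.05, and with the block 5 were called higher, TNFSF10 and the decoy receptor TNFRSF11B joining. Over all 12698 genes 2090 had an unadjusted p below 0.05 in either direction, and 230 were called higher with the block.

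IL1B, a secreted cytokine of the same list, was the exception. It was undetected on all GSK126 arrays (6.53, 6.55 and 5.89) and detected on all ARID1A arrays (8.28, 7.65 and 8.68), which were at least 2.73-fold higher (difference −1.88, SE 0.26, limma adjusted p = 0.00792). The DMSO arrays did not detect it (6.38, 6.15 and 6.31). Members that were not called spanned −0.27 (TNIP1) to 0.91 (TNFAIP3). Among the subunits and inhibitors of NF-kappaB, NFKB1 differed by 0.12, NFKB2 by 0.25, RELB by 0.20 and NFKBIA by 0.10, none of which passed. IL6 read 11.44, 12.03 and 12.16 in GSK126 cells and 10.36, 11.69 and 11.17 in ARID1A cells, and the groups overlapped. Its difference of 0.80 and that of the feedback inhibitor TNFAIP3, 0.91, passed with the block only (limma adjusted p = 0.0317 and 0.00839, against 0.275 and 0.244 without it).

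The promoters of 4 cytokine genes called higher are shown beside those of PTGS2, also called higher, and IL1B, called lower, so that their NF-kappaB motifs can be compared. Each runs 5′ to 3′ from 250 bases before to 50 bases after the gene's start, from RefSeq on GRCh38.p14. Capitals mark matches to an NF-kappaB motif, read as GGG, any 3 bases, then TTCC, searched on both strands. The windows are chr2:227813592-227813891 on the plus strand for CCL20, chr4:73869143-73869442 on the plus strand for CXCL1, chr4:76023448-76023747 on the minus strand for CXCL10, chr6:31582376-31582675 on the minus strand for LTB, chr1:186680374-186680673 on the minus strand for PTGS2 and chr2:112836730-112837029 on the minus strand for IL1B.
CCL20: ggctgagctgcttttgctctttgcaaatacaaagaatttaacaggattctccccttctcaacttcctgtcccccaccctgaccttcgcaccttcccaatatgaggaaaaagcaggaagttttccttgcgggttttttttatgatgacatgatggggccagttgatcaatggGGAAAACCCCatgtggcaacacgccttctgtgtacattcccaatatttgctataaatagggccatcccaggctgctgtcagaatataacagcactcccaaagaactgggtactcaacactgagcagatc
CXCL1: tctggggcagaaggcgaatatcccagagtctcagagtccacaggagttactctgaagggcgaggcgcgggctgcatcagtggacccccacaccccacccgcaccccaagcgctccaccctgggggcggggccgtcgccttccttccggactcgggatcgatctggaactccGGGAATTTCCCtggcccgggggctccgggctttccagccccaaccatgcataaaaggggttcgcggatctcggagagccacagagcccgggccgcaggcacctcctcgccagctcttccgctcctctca
CXCL10: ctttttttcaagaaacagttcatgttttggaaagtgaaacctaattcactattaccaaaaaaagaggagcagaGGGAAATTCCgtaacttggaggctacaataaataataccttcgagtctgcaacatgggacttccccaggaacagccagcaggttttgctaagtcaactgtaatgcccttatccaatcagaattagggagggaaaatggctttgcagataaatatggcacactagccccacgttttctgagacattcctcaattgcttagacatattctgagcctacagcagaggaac
LTB: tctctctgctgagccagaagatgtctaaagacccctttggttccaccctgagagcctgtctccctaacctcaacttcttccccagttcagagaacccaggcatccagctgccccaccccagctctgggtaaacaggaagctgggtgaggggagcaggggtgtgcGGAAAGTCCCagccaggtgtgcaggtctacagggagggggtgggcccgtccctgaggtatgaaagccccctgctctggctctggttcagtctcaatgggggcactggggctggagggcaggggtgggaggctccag
PTGS2: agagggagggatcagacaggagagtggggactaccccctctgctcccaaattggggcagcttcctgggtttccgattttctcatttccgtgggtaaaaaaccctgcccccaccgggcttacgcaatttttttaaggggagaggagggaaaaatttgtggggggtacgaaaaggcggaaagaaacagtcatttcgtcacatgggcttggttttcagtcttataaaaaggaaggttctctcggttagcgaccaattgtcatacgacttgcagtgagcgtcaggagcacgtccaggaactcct
IL1B: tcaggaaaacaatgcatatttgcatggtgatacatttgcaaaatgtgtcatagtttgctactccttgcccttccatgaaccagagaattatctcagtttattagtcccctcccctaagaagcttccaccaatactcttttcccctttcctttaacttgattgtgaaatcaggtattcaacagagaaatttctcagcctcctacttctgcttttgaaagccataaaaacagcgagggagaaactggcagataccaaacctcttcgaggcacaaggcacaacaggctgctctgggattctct
CCL20 held a match whose first base lay 79 bases before the start, CXCL1 a pair of overlapping matches (on both strands) 79 and 78 bases before it, CXCL10 a match 177 bases and LTB a match 86 bases before it. No match was found in the windows of PTGS2 and IL1B, nor in that of TNF, which says only that these letters are not in these windows. RefSeq promoters were matched to 10155 of the 12698 tested genes by symbol. Of 27305 promoters, 6.47% held the motif, as did 7.28% of the matched tested genes, 11 of 19 matched members of the NF-kappaB list (57.9%), 9 of 87 matched genes called higher (10.3%) and 7 of 144 called lower (4.86%). Members of the NF-kappaB list were chosen as its cytokines and targets, so the list's share says nothing about the calls. The AP-1 motif TGANTCA was in 7.76% of all 27305 promoters, 4.58% of those of the matched tested genes, 8.05% of those called higher and 4.86% of those called lower. A match is a description of the sequence and not evidence of binding.

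Acute-phase proteins, which hepatocytes and epithelia secrete in inflammation, moved both ways. Of 29 genes listed 16 were tested, 3 were called higher and 1 lower (25% against 2.5% over all genes), and the median difference was 0.267. Serum amyloid SAA2 read 11.08, 9.76 and 10.11 in GSK126 cells, against 8.48, 8.13 and 8.57 in ARID1A cells and 10.63, 9.72 and 9.94 in DMSO cells (difference 1.93, SE 0.34, limma adjusted p = 0.0232). Its near-identical neighbour SAA1, with which probes may cross-hybridise, differed by 1.04 and did not pass (limma adjusted p = 0.21). The fibrinogen beta chain FGB read 10.08, 9.98 and 9.97 in GSK126 cells, against 9.12, 8.76 and 8.45 in ARID1A cells and 8.80, 9.33 and 9.29 in DMSO cells (difference 1.24, SE 0.19, limma adjusted p = 0.0125). Complement C1S, a protease of the classical cascade, was 0.71 higher (limma adjusted p = 0.0484), and not called with the block (0.0554). Complement factor CFB differed by 1.32, called with the block only (limma adjusted p = 0.0356, against 0.132 without it), and the block added the complement inhibitor CD55 (−0.48) to the lower genes. The protease inhibitor SERPINA1, also known in clear cell carcinoma, went the other way, at 10.79, 10.11 and 10.51 in GSK126 cells, against 11.86, 11.56 and 12.42 in ARID1A cells and 10.18, 9.79 and 10.16 in DMSO cells (difference −1.48, SE 0.24, limma adjusted p = 0.0166).

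Interferon-stimulated genes were called at the share of all genes, 1 of 39 tested (2.56%, against 2.5%). The called gene was GBP1, a guanylate-binding protein that restricts pathogens, at 11.57, 11.42 and 11.41 in GSK126 cells, against 10.99, 10.89 and 10.90 in ARID1A cells (difference 0.54, SE 0.10, limma adjusted p = 0.0303). The batches disagreed on the list, whose median difference was −0.169, 0.585 and −0.033 in batches 1, 2 and 3. Of 17 MHC genes tested none was called without the block, by limma's adjusted p, with 8 higher at an unadjusted p below 0.05, and 3 were higher with the block: HLA-DRA, CD74 and HLA-G. Over all 12698 genes 2090 reached that unadjusted p in either direction, and 230 were called higher with the block. HLA-DRA, a chain of an MHC class II molecule, averaged 11.36 ± 0.43 in GSK126 cells and 10.31 ± 0.31 in ARID1A cells (SD, n = 3 each; difference 1.05, limma adjusted p = 0.11, and 0.0293 with the block).

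Among apical and urothelial genes 10 were lower with GSK126. Such genes build the surface that faces a lumen: plaque proteins, microvilli, ion channels and carbonic anhydrases. Of 31 listed 21 were tested, and ESPN and PROM1 passed the detection filter through the ARID1A arrays alone, so the count is over tested members and not the list. Of the 21, 10 were called lower (47.6%, against 1.54% over all genes) and none higher by limma's adjusted p (13 lower and 2 higher at an unadjusted p below 0.05), and the median difference was −0.425. This list was chosen with earlier results of these data known, so the share describes its members and tests nothing. The microvillar actin bundler ESPN was undetected on all GSK126 arrays (6.45, 6.62 and 6.24) and read 9.19, 9.24 and 9.42 in ARID1A cells, at least 5.79-fold higher (limma adjusted p = 3.07e-05). It was also undetected on the DMSO arrays (6.16, 6.20 and 6.48). The urothelial plaque protein UPK2 read 6.53, 6.92 and 5.96 in GSK126 cells, against 8.96, 9.02 and 9.57 in ARID1A cells, at least 5.18-fold higher (limma adjusted p = 0.000851). The carbonic anhydrase CA12 read 7.52, 6.30 and 6.66 in GSK126 cells, against 9.65, 9.00 and 9.94 in ARID1A cells, at least 5.77-fold higher (limma adjusted p = 0.00385). Each of UPK2 and CA12 was detected on 1 of 3 GSK126 arrays, and no GSK126 array of these genes reached an ARID1A array.

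Transporters and channels of the same list moved likewise. SCNN1G, the gamma subunit of the epithelial sodium channel, read 6.95, 6.33 and 6.35 in GSK126 cells, against 8.75, 8.97 and 9.54 in ARID1A cells, at least 4.85-fold higher (limma adjusted p = 0.00083), and its other probe differed by −2.34. The alpha subunit SCNN1A differed by −0.24 and did not pass (limma adjusted p = 0.225). SLC4A11, a membrane transporter, read 10.05, 10.15 and 10.10 in GSK126 cells, against 11.48, 11.51 and 11.58 in ARID1A cells and 9.93, 10.26 and 10.03 in DMSO cells (difference −1.43, SE 0.10, limma adjusted p = 0.000256). The remaining lower members were PROM1, a glycoprotein of apical protrusions, the immunoglobulin carrier PIGR, the proton pump subunit ATP6V1B1 (−0.67) and the transcription factors GRHL3 (−0.62) and FOXA1 (−0.43). PROM1 was at least 2.73-fold and PIGR at least 1.91-fold higher in ARID1A cells. UPK1A, UPK1B and UPK3B, other plaque proteins, differed by 0.31, 0.19 and 0.07 and did not pass, so UPK2 was the only tested uroplakin called.

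Keratins, which form the intermediate filaments of epithelia, were called lower in 3 of 7 tested genes (42.9%, against 1.54% over all genes; 5 at an unadjusted p below 0.05). KRT13 passed the detection filter through the ARID1A arrays alone. All 7 differences were below 0 (median −0.44). Beside KRT13, the differentiation keratin KRT80 read 12.09, 12.12 and 12.40 in GSK126 cells, against 13.27, 12.99 and 13.37 in ARID1A cells (difference −1.01, SE 0.14, limma adjusted p = 0.00749). KRT8, a filament protein of simple epithelia, was the third (difference −0.60, limma adjusted p = 0.0104), and its simple-epithelial relative KRT7 differed by −0.44 without passing (limma adjusted p = 0.0762). Among 32 junction genes tested 4 were called lower (12.5%, against 1.54% over all genes), while the list's median was −0.05, near that of all genes. The pore-forming claudin CLDN2 was undetected on all GSK126 and DMSO arrays and at least 2.41-fold higher in ARID1A cells (limma adjusted p = 0.00057). It too passed the detection filter through the ARID1A arrays alone. E-cadherin, CDH1, read 15.21, 15.18 and 15.15 in GSK126 cells, against 15.68, 15.55 and 15.73 in ARID1A cells (difference −0.47, SE 0.08, limma adjusted p = 0.0244), and plakoglobin, JUP, differed by −0.45 and the membrane protease ST14 by −0.53. EPCAM (−0.01), DSP (−0.04) and CTNNB1 (−0.04) did not pass.

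Mucins and the enzymes that glycosylate them were called higher in 1 and lower in 3 of 22 tested genes (18.2%, against 2.5% over all genes; median −0.137). Beside GALNT16, the related transferase GALNT18 read 8.25, 8.94 and 8.35 in GSK126 cells, against 9.57, 9.89 and 9.99 in ARID1A cells and 8.14, 8.67 and 8.16 in DMSO cells (difference −1.30, SE 0.21, limma adjusted p = 0.018). The other 8 tested GALNT genes of the list differed by −0.44 (GALNT6) to 0.38 (GALNT11) and were not called. MUC16, which carries the CA125 antigen, differed by −0.70 (limma adjusted p = 0.0231), while MUC1 differed by 0.09. CEACAM1, an adhesion molecule that inhibits immune cells, read 12.40, 12.30 and 12.24 in GSK126 cells, against 11.64, 11.59 and 11.76 in ARID1A cells (difference 0.65, SE 0.10, limma adjusted p = 0.0133).

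Basement membrane, mesenchymal and clear cell carcinoma lists had 3.85%, 14.3% and 19% of their tested genes called, against 2.5% over all genes. With the block the share over all genes was 4.17%. Of 26 basement membrane and integrin genes the laminin chain LAMB2 was called lower with GSK126 (difference −0.70, SE 0.13, limma adjusted p = 0.0301), and 5 were lower with the block, among them the integrins ITGB3, ITGB4, ITGB6 and ITGAV. Of 14 mesenchymal genes 1 was higher and 1 lower, and with the block 2 were higher, S100A4 joining. Collagen COL6A1 was 0.46 higher (limma adjusted p = 0.0296). Tenascin, TNC, read 9.43, 9.25 and 9.29 in GSK126 cells, against 10.19, 10.09 and 10.30 in ARID1A cells (difference −0.87, SE 0.09, limma adjusted p = 0.00275), and its other probe differed by −2.47. Of 21 clear cell carcinoma markers 1 was higher and 3 lower, and 3 each way with the block. Beside SERPINA1, the aldo-keto reductase AKR1B10 was at least 2.27-fold (limma adjusted p = 0.00792) and the NODAL antagonist LEFTY1 at least 1.77-fold higher in ARID1A cells (limma adjusted p = 0.00546). LEFTY1 was undetected on all GSK126 and DMSO arrays and passed the detection filter through the ARID1A arrays alone, so the list's share is over tested members. AMACR, which readies branched fatty acids for oxidation, was 0.54 higher with GSK126 (limma adjusted p = 0.0417).

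Histone genes lay below 0 as a group. They encode the proteins DNA winds around, most in clusters copied during S phase, and many differ by few bases, so probes may read more than 1 copy. Of 28 listed 23 were tested and 22 had a difference below 0, with a median of −0.635 against −0.007 over all genes, and the batch medians were −0.753, −0.364 and −0.751. Of the 23, 2 were called lower (8.7%, against 1.54% over all genes), 16 were lower at an unadjusted p below 0.05, and 10 were called lower with the block. Over all 12698 genes 2090 reached that unadjusted p in either direction, and 300 were called lower with the block. H2AC18 read 11.03, 11.51 and 10.96 in GSK126 cells, against 11.93, 12.20 and 12.58 in ARID1A cells and 10.72, 11.01 and 11.16 in DMSO cells (difference −1.07, SE 0.20, limma adjusted p = 0.0294). H2AC20 read 11.06, 11.54 and 11.19 in GSK126 cells, against 11.88, 12.06 and 12.45 in ARID1A cells (difference −0.86, SE 0.17, limma adjusted p = 0.036). H2BC8 had the lowest value, −1.29, and was called with the block only (limma adjusted p = 0.0201, against 0.11 without it). The variant histones H3-3A (−0.05), H3-3B (0.05) and H2AZ1 (−0.02), which are made throughout the cell cycle, lay near 0. Another variant, H2AJ, differed by −0.58, near the list's median, without passing (limma adjusted p = 0.112). The variants thus did not all lie near 0. Of 48 DNA replication and G1/S genes, many of which are also expressed in S phase, none was called by limma's adjusted p (2 higher and 3 lower at an unadjusted p below 0.05), and their median was −0.025. Among them E2F1 differed by 0.51 and E2F2 by −0.34.

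**Figure D4:**
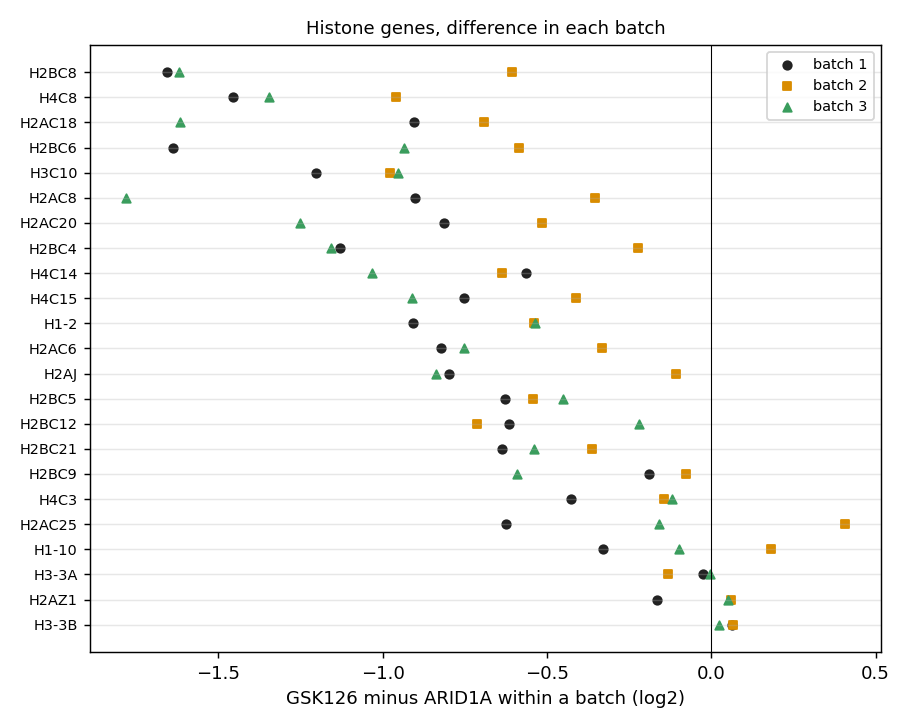
Difference between GSK126 and ARID1A cells within each batch (x axis, log2) for 23 histone genes, 1 symbol per batch of 1 array against 1. From H2BC8 at the top down to H4C3 every gene lies left of 0 in all 3 batches, the variant H2AJ among them, and the variant genes H3-3A, H2AZ1 and H3-3B lie near 0.

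Developmental transcription factors known as Polycomb targets were called higher in 2 and lower in 3 of 51 tested genes (9.8%, against 2.5% over all genes), with a median of 0.085. With the block 3 were called higher and 3 lower. The homeobox gene HOXD1 read 10.93, 10.80 and 10.91 in GSK126 cells, against 10.23, 10.32 and 10.12 in ARID1A cells and 10.70, 10.67 and 10.55 in DMSO cells (difference 0.66, SE 0.09, limma adjusted p = 0.00745). The endoderm factor FOXA2 was 0.67 higher (limma adjusted p = 0.0166). HOXC4 read 8.15, 8.11 and 8.10 in GSK126 cells, against 9.47, 9.17 and 9.72 in ARID1A cells (difference −1.33, SE 0.15, limma adjusted p = 0.0031), and SOX9, a factor of ducts and cartilage, was at least 2.00-fold higher in ARID1A cells (limma adjusted p = 0.0237). Both directions thus occurred among the homeobox genes called. FOXA1, the paralogue of FOXA2, differed by −0.43 and was called lower. Among 27 Wnt genes 3.7% were called, near the 2.5% over all genes. The receptor FZD7 was 0.54 higher (limma adjusted p = 0.0433), while its other probe differed by 0.23 and did not pass (limma adjusted p = 0.284 over all probes). With the block FZD7 was not called (0.0532), and the receptor FZD4 (0.44) and the feedback gene AXIN2 (0.49) were called instead.

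Transcripts of the complexes themselves gave no call on a gene's brightest probe. Of 14 PRC2 and H3K27 demethylase genes none was called by limma's adjusted p or had an unadjusted p below 0.05, and the median was 0.05. The smallest p-values belonged to PHF19, an accessory subunit (−0.21, 95% interval −0.48 to 0.05), and EPOP, another (0.15, 95% interval −0.06 to 0.35). Of 22 SWI/SNF genes none was called on its brightest probe by limma's adjusted p, and 1 was lower at an unadjusted p below 0.05. The ATPase SMARCA2 differed by −0.24 (95% interval −0.42 to −0.05, limma adjusted p = 0.179) and BICRAL by −0.22. Of 16 deacetylase and DNA methylation genes HDAC11 alone was called (6.25%, against 2.5% over all genes). It was lower with GSK126 (difference −0.56, SE 0.11, limma adjusted p = 0.0301), and HDAC6 differed by −0.19 (95% interval −0.41 to 0.04, limma adjusted p = 0.397). An interval that includes 0 does not show that the groups are equal.

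Fatty acid genes showed opposite elongases. ELOVL6, which lengthens saturated and monounsaturated chains, read 11.26, 11.21 and 11.12 in GSK126 cells, against 12.44, 12.38 and 12.62 in ARID1A cells and 10.70, 10.80 and 10.82 in DMSO cells (difference −1.28, SE 0.09, limma adjusted p = 0.000256). Its other probe differed by −1.29. ELOVL5, which lengthens polyunsaturated chains, read 12.65, 12.96 and 12.98 in GSK126 cells, against 12.28, 12.41 and 12.26 in ARID1A cells (difference 0.55, SE 0.11, limma adjusted p = 0.0352). The desaturase SCD was 0.68 higher with GSK126 (limma adjusted p = 0.021). Of 21 tested genes of fatty acid synthesis these 3 were called (14.3%, against 2.5% over all genes). Cholesterol synthesis gave no call by limma's adjusted p in 18 tested genes (3 higher at an unadjusted p below 0.05), and its median differed between batches, at −0.141, 0.075 and 0.507 in batches 1, 2 and 3. Of 35 hypoxia and glycolysis genes tested 2 were lower (5.71%, against 1.54% over all genes), CA12 and the angiogenic factor VEGFA (difference −0.80, SE 0.16, limma adjusted p = 0.0363). Of 18 NRF2 genes AKR1B10 and the efflux pump ABCC3 were lower (11.1%, against 1.54% over all genes), the second not with the block (limma adjusted p = 0.0562).

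Lists of signalling and cell death genes gave between 1 and 3 calls each. The share called was 5.88% for PI3K and AKT inhibitors and 10.7% for apoptosis regulators, against 2.5% over all genes. It was 3.85% for FOXO targets, 3.7% for immediate early genes and 3.45% for p53 targets, near the share of all genes. Among 17 inhibitors of PI3K and AKT, TRIB3 was 0.45 higher (limma adjusted p = 0.0481), and the block added the phosphatases INPP4B (0.52) as higher and PHLPP2 (−0.52) as lower. PIK3IP1, a membrane inhibitor of PI3K, read 10.21, 10.13 and 9.52 in GSK126 cells, against 10.44, 10.29 and 10.82 in ARID1A cells and 9.76, 9.53 and 9.52 in DMSO cells. Its difference of −0.56 did not pass (95% interval −1.01 to −0.12, limma adjusted p = 0.19, and 0.183 with the block). Of 26 FOXO targets the repressor BCL6 was lower, at 11.16, 10.79 and 11.12 in GSK126 cells, against 11.87, 11.66 and 12.05 in ARID1A cells (difference −0.83, SE 0.13, limma adjusted p = 0.0137). With the block TNFSF10, also a listed FOXO target, was called higher (limma adjusted p = 0.0229). The AP-1 subunit JUN was lower as well (difference −0.82, SE 0.16, limma adjusted p = 0.0303), 1 of 27 immediate early genes tested, and the block added MYC (0.68) and CCN2 (0.66) as higher. Among 28 apoptosis regulators the BH3-only genes split: BMF was lower (−0.91, limma adjusted p = 0.0339), while HRK, at least 1.72-fold, and PMAIP1, 0.55, were higher (limma adjusted p = 0.0465 and 0.029). CDKN1A differed by −0.37 (95% interval −0.75 to 0.01, limma adjusted p = 0.314) and CDKN1C by 0.23 (95% interval −0.26 to 0.73). PMAIP1 was the only p53 target of 29 called, with the repair gene DDB2 (0.47) added by the block.

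Housekeeping and growth programmes gave no calls in limma's model, where 2.5% of all genes were called. None passed among 46 mitotic, 13 CDK inhibitor and cyclin D, 22 unfolded protein response, 32 oxidative phosphorylation, 29 ribosomal protein, 35 lysosome and 16 aldehyde dehydrogenase genes, and their medians lay between −0.082 and 0.069. Unadjusted p-values below 0.05 were reached by 0 of the mitotic genes, by 1 higher and 3 lower CDK inhibitor and cyclin genes, by 2 lower unfolded protein response genes and by 7 lower lysosome genes. They were also reached by 2 higher oxidative phosphorylation genes, 4 higher ribosomal protein genes, and 1 higher and 1 lower aldehyde dehydrogenase. The mitotic median of −0.082 came from batches at −0.399, 0.076 and 0.08. At the smallest p in these lists stood CKS2 (0.22) and BUB3 (−0.18) for mitosis, CTSD (−0.36) and CTSB (−0.38) for the lysosome, and CDKN1B (−0.38) and CDKN2B (−0.53) for the CDK inhibitors. Of 26 tested ATF4 and amino acid response genes TRIB3 alone was called (3.85%, near the share of all genes).

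**Figure D5:**
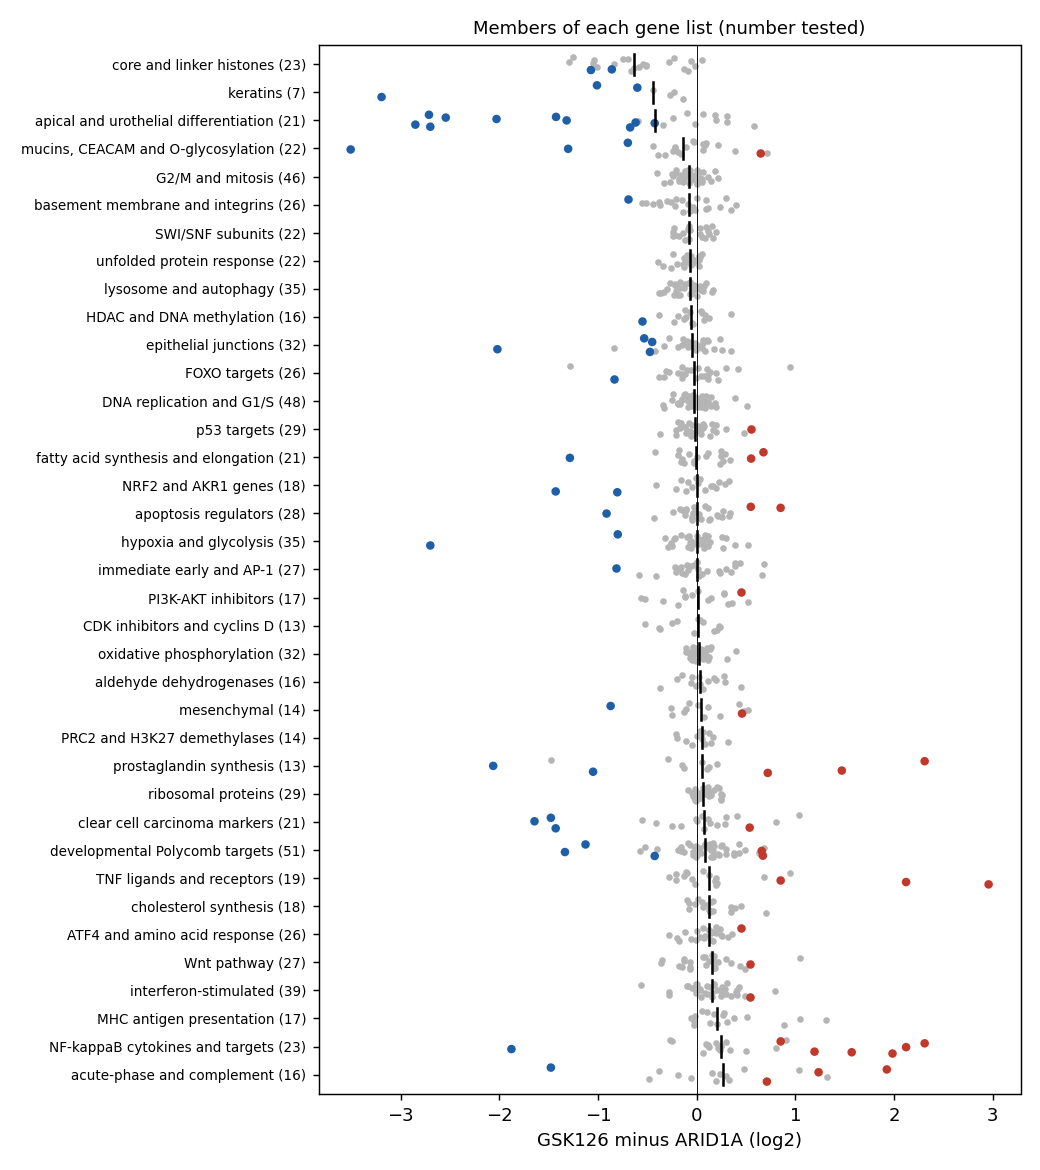
Difference between GSK126 and ARID1A cells (x axis, log2) of the tested members of 37 gene lists, each point 1 gene and each black bar the median of its list; red points were called higher and blue points lower with GSK126, grey points not. The apical and urothelial list has 10 blue points and no red one, and the NF-kappaB list 6 red points and 1 blue.

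The DMSO arrays show on which side of the vehicle each treatment lay, as a description, since the difference tested is between the means of the other 6 arrays. Of the 196 genes lower with GSK126 the DMSO mean was nearer to the GSK126 mean in 179 (91.3%), and of the 121 higher genes in 87 (71.9%), against 58.1% of genes not called. The DMSO mean lay below both treatments for 72 of the lower genes (36.7%, against 32.9% of genes not called), SERPINA1 and BCL6 among them. It lay above both for 17 of the higher genes (14%, against 34.7% of genes not called), CCL20, CXCL1 and LTB among them. It lay between the treatments for 102 of the higher genes (84.3%), against 32.3% of genes not called, a position that a difference between treatments favours by construction. Of the lower genes 24 were undetected on every GSK126 array, and 19 of these were also undetected on every DMSO array. The filter of at least 3 detected arrays leaves such genes only where all ARID1A arrays detected them. Of the higher genes 13 were undetected on every ARID1A array.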

How the data were processed

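RNA of 9 OVISE samples was hybridised to an Illumina expression array. The deposited raw table gives linear intensity for every probe, and the submitters' processing notes name GenomeStudio without a version. The same deposited table gives each probe's detection p-value. A second deposited table, the authors' values, holds a linear intensity whose columns share 1 set of quantiles, with medians of 329.794 to 329.797 and the order of the raw values (rank correlation 1 on each array), so it was read as quantile normalised, not centred.

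Raw intensities went through neqc in limma 3.58.1 (R 4.3.3): background correction by normexp with controls inferred from the detection p-values, an offset of 16, quantile normalisation and log2. The log2 scale was reached here, from the deposited linear values. Symbols came from the platform annotation (30113 probes with 1 symbol, 8 with several, 17202 with none), and for 30074 the current RefSeq symbol (GRCh38.p14) was looked up by Entrez identifier. Of 47323 probes 23014 were kept (48.63%), 5947 of them without exactly 1 symbol. Each gene took its brightest kept probe, and 3476 genes had more than 1. Of 105 other probes of called genes 94 had the same sign and 0 were called with the opposite sign, while 21 genes were called only through another probe. Another probe of BMF, CEACAM1, GBP1, H2AC18, PMAIP1 and SRGN had the same sign without passing. At the edge of the filter, 840 probes detected on exactly 3 arrays had a median level of 6.63 and a median difference of 0.033, and 1120 detected on exactly 2 arrays, left out, had 6.52 and −0.002.

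Group means were fitted over all 9 arrays (lmFit, eBayes, 6 residual degrees of freedom) and GSK126 minus ARID1A tested two-sided. Every adjusted p is limma's. Batches are labelled, so replicate numbers pair the samples. Over all genes, a GSK126 and an ARID1A array of the same batch shared deviations from their own group mean with r of 0.072 to 0.18 (3 pairs), against −0.118 to 0.027 for the 6 pairs across batches. Levels of replicates correlated between 0.9908 and 0.9923, and no 2 arrays were identical. The model with the block is printed where it changes a call or moves a count by over 1.5 times.

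Named genes were the 15 largest rises and 15 largest falls with 1 sign in the 3 batches, 8 fixed genes (ARID1A, EZH2, EZH1, PIK3IP1, HDAC6, CDKN1A, CDKN1C and TNFSF10), and from each of 37 lists up to 4 called members, at most 2 each way, or else the 2 with the smallest p. Further genes were named after their values were seen. The lists held 1091 genes, 869 of them tested. The comparison and the lists were chosen with earlier results of these data known. The scripts were tested on simulated data. The precision is limited by the number of arrays.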

Additional observations from a re-analysis of the deposited data

How the results depend on the processing

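The number of genes called, 317, moved by more than 1.5 times under several alternatives. It was 530 with the replicate block, 168 with the fit on 6 arrays, 120 with the fit on 6 arrays and the replicate block, 168 with background correction and fit on the 6 arrays, 513 without background correction and 513 on the authors' value table. Leaving out 1 array gave 108 to 170 and leaving out 1 batch 29 to 68, with fewer samples in the fit. It stayed within 1.5 times with an offset of 50 (348), median centring (314), no detection filter (229), detection on all 6 arrays (278), a detection p below 0.01 (346), the mean of a gene's probes (311) and all probes tested (295). Of the 65 named genes that were called, 12 passed under all alternatives that tested them, 29 with each of the 6 arrays left out in turn, and 12 with each batch left out. The replicate block kept 63 of the 65. In 1404 pairs of a named called gene and an alternative the threshold was passed in 1027 and missed in 377, and in 0 did a called difference turn its sign. Where the cause of a lost call is not the smaller number of samples or genes, it was not tested. Genes near the background have bounds in place of folds, since their signal limits the precision.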

Other observations

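Genes outside the lists are given as values, chosen after they were seen. The lipid exporters ABCA1 and ABCG1, which load cholesterol onto lipoproteins, were both lower with GSK126. ABCA1 read 10.21, 10.09 and 10.19 in GSK126 cells, against 11.17, 11.26 and 11.46 in ARID1A cells (difference −1.13, SE 0.12, limma adjusted p = 0.00275). ABCG1 read 9.51, 8.86 and 9.05 in GSK126 cells, against 10.65, 10.58 and 11.29 in ARID1A cells (difference −1.70, SE 0.23, limma adjusted p = 0.00805). The Notch ligands DLL1 and DLL3 were both higher with GSK126, by 0.95 and 0.49 (limma adjusted p = 0.0357 and 0.0417). The chloride channel CFTR read 8.91, 8.81 and 8.64 in GSK126 cells, against 7.82, 8.00 and 8.13 in ARID1A cells (difference 0.80, SE 0.12, limma adjusted p = 0.0111), and the protease inhibitor SLPI was 0.70 higher (limma adjusted p = 0.0433). The epithelial transcription factor SPDEF read 7.22, 6.83 and 7.30 in GSK126 cells, against 8.95, 8.31 and 9.40 in ARID1A cells (difference −1.77, SE 0.25, limma adjusted p = 0.00904). The membrane protease TMPRSS2 was at least 3.72-fold higher in ARID1A cells (limma adjusted p = 0.00974). The alcohol dehydrogenases ADH1A and ADH1C, near-identical genes whose probes may read both, had ARID1A levels above those of GSK126 cells by at least 2.79-fold and 2.17-fold (limma adjusted p = 0.00599 and 0.00904).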
